A study of Homo sapiens with 4 samples.

Results

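Genes of the mitochondrial protein quality control system were followed in A549 cells, a human lung adenocarcinoma line, after a short exposure to embelin, a benzoquinone isolated from Embelia ribes. The genes were chosen by name: HSPD1, HSPE1, HSPA9, TRAP1, LONP1, CLPP, CLPX, YME1L1, SPG7 and AFG3L2. Every probe on the array that carried one of these names, or the RefSeq transcript of one of them, was taken, which gave 17 of 50238 probes and 10 of the 17650 genes or transcripts with a kept probe. The control group was 2 samples of untreated A549 cells and the treated group was 2 samples given embelin at 15 µM, all collected at 4 h. All 4 samples had been moved to medium with less serum before the treatment period, so low serum is shared by both groups, and the labels name no vehicle for the controls. Each sample was hybridized to 1 single-colour array, so the comparison asks which transcripts differed between treated and untreated cells at this early time. Nothing in the labels says that the 2 samples of a group came from separate cultures, so the p-values measure the spread between these samples, which may be technical.

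Most mitochondrial proteins are made in the cytosol and imported unfolded, and they are folded in the matrix by mitochondrial HSP70 and by the HSP60/HSP10 chaperonin, a barrel with a lid. Damaged or surplus proteins are removed by ATP-driven proteases, LONP1 and the CLPX-CLPP complex in the matrix, and YME1L1 and the AFG3L2-SPG7 complex in the inner membrane. When unfolded protein builds up in the organelle, cells are known to raise nuclear transcripts for some of these chaperones and proteases (the mitochondrial unfolded protein response), in which the transcription factors CHOP (DDIT3), ATF4 and ATF5 have been given roles. HSPD1 and HSPE1 are also known targets of heat shock factor, and LONP1 transcription is known to respond to hypoxia-inducible factor and to the integrated stress response.

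The arrays read each gene through 60-base probes. The sequences of some of them are given here as deposited, 5′ to 3′, with no base singled out. The LONP1 probe is the only one for the gene that moved most. The HSPE1 probe is the only one for HSP10. The HSPD1 probe shown is the second and dimmer one for HSP60, and does not stand for the gene in the calls. The AFG3L2 probe is the brighter of a pair with a wide spread between arrays.
LONP1 probe: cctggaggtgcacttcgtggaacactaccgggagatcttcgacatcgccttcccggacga
HSPE1 probe: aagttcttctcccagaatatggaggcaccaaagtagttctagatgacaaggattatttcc
HSPD1 probe 2: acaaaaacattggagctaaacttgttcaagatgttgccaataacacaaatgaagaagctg
AFG3L2 probe 1: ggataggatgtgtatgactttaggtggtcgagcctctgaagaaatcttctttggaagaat

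All 17 probes passed the filter on dim signal, 16 were well above background on all 4 arrays, and none was left out as an outlier on any array. Signals are given below as normalized log2 intensity after the arrays had been scaled to the same 75th percentile, and a change is the embelin mean minus the control mean on that scale. Where a gene had more than 1 probe, as 5 of the 10 did, the one with the highest mean signal stood for it and the others are given beside it. The arrays differed in background, with 50.3% to 66.7% of probes well above it, and 1 array of each group was of the noisier kind (control replicate 2 and embelin replicate 1). The 10 epithelial and A549 marker genes (KRT8, KRT18, KRT19 and others) were well above background on every array. Of the fibroblast, leukocyte and endothelial markers, 1 of 6, 1 of 6 and 0 of 4 were. COL1A1, the fibroblast marker that was, had a log2 fold change of 1.30. It was at 6.38 and 6.27 in the controls and at 7.56 and 7.69 with embelin. The log2 of the summed signal of that list ran from 6.87 to 8.24 in the controls and from 7.87 to 9.98 with embelin, which overlap. COL1A2 and COL3A1 were at 8.30 and 8.86 on embelin replicate 1, and LUM at 7.44 on control replicate 2. Each of these was well above background on only 1 array. Of the leukocyte markers, CD14 was at -0.60 (well above background on 4 arrays), and CD3E and ITGAM were at 1.25 and 1.35 (on 3 arrays each), with none of these called.

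Most of the chaperone and protease genes differed little in mean signal between embelin and control at 4 h. Of the 10 genes, 9 had log2 fold changes between -0.31 and 0.12, and LONP1, the ATP-dependent protease of the matrix, was 1.87-fold higher. By limma, with p-values adjusted over all genes by the Benjamini-Hochberg method, 0 of the 10 were called, against 1.81% of all genes (1.25% higher and 0.561% lower). Without adjustment 1 of the 10, LONP1, had p under 0.05, against 19.5% of all genes (8.36% higher and 11.1% lower). The methods' t-test called 0 genes of any kind after adjustment and so says nothing of the 10. A mean change of at least 1.5-fold was seen in 1 of the 10, again LONP1, against 26.9% of all genes, and one of at least 2-fold in 0, against 12.6%. The median log2 fold change was 0.04 over the 10 genes and -0.06 over all genes tested. The embelin and control arrays did not overlap for 2 of the 10, LONP1 higher and HSPE1 lower, against 51.8% of the genes measured throughout (21.1% higher and 30.7% lower). With only 10 genes, these counts were not tested against the shares and are not read as a result about the group. With 2 arrays a group, changes well above the sizes seen here can go uncalled, so 0 calls is weak evidence that a gene did not change.

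**Figure D1:**
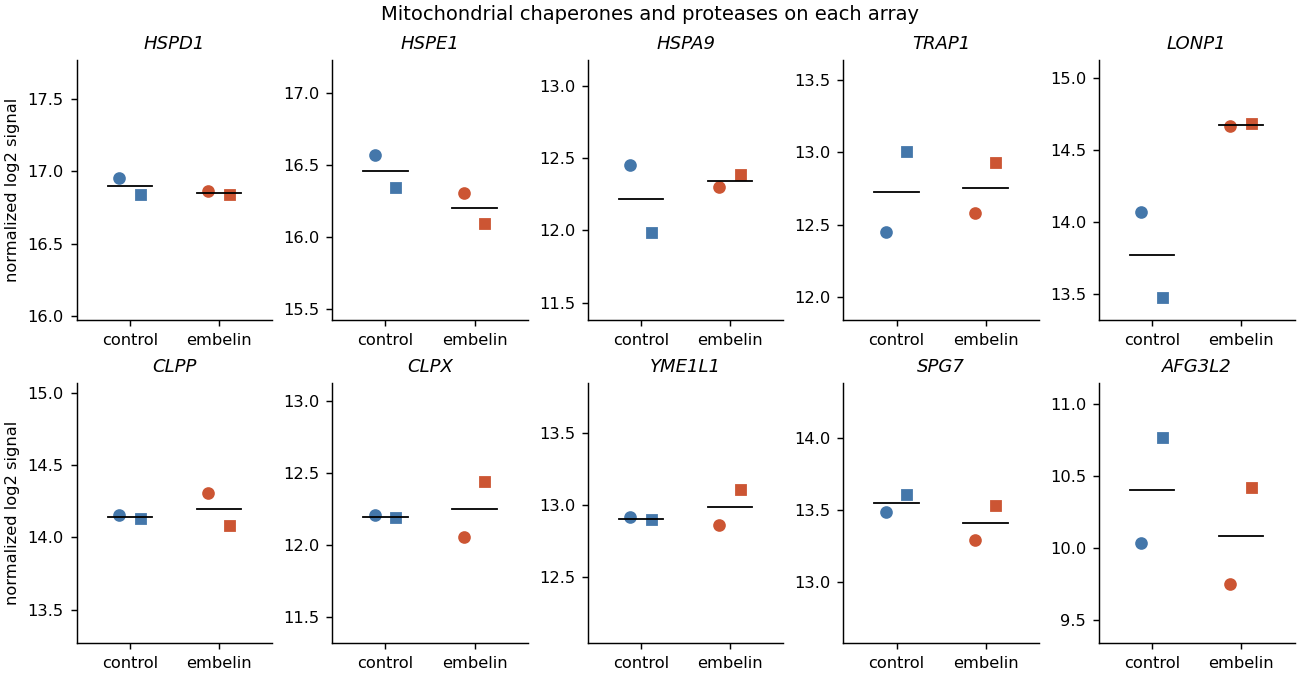
Normalized log2 signal of each of the 10 genes on the 4 arrays. Blue points are controls and orange points embelin (15 µM, 4 h), circles are replicate 1 and squares replicate 2, bars are group means, and every panel spans the same number of log2 units. LONP1 is the gene whose embelin arrays, at 14.66 and 14.68, lie clearly above both controls, and the AFG3L2 panel shows arrays of 1 group lying apart by as much as 0.72.

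LONP1 encodes the Lon protease, which degrades misfolded and oxidized proteins of the matrix and binds mitochondrial DNA. Its normalized log2 signal was 14.07 and 13.47 in the controls and 14.66 and 14.68 with embelin. Both treated arrays were higher than both controls, and the controls differed from each other far more than the treated arrays did. The means were 13.77 ± 0.42 (SD, n = 2) and 14.67 ± 0.01 (SD, n = 2), a log2 fold change of 0.90 with a standard error of 0.26 and a 95% interval of 0.19 to 1.61. In folds this interval runs from 1.14 to 3.05. The adjusted p from limma was 0.182, so LONP1 was not called, and the unadjusted p was 0.0240. Of all genes tested, 14.8% changed by at least as much in either direction. Between the arrays with the lower background (control replicate 1 and embelin replicate 2) the difference was 0.61, and between those with the noisier background it was 1.19. Over the 16 alternatives the adjusted p ranged from 0.0661 to 0.672.

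CLPP and CLPX are the proteolytic chamber and the unfoldase of the other soluble matrix protease. CLPP was at 14.16 and 14.13 in the controls and at 14.31 and 14.08 with embelin, with the embelin arrays on either side of the controls. Its log2 fold change was 0.05 (95% interval -0.43 to 0.53, adjusted p = 0.913 from limma). CLPX was at 12.21 and 12.18 in the controls and at 12.05 and 12.44 with embelin, again on either side. Its log2 fold change was 0.05 (95% interval -0.51 to 0.61), and its second probe, designed on another accession, gave 0.999-fold (log2 interval -0.49 to 0.48). For both partners of this protease the intervals thus leave out a 2-fold change in either direction, while that of LONP1 does not leave out a 2-fold rise. Whether LONP1 differed from CLPP or CLPX in its response was not tested.

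HSPD1 (HSP60) and HSPE1 (HSP10) together form the folding chamber and its lid. HSPD1 was at 16.95 and 16.84 in the controls and at 16.86 and 16.83 with embelin, so that all 4 arrays lay close together and the groups overlapped. Its log2 fold change was -0.05 with a 95% interval of -0.49 to 0.39, or 0.712-fold to 1.31-fold. At its second probe, which was dimmer and also well above background throughout, the control arrays were at 10.10 and 9.56 and the embelin arrays at 10.00 and 9.91. There the log2 fold change was 0.12 (95% interval -0.56 to 0.81), so the sign differed between the probes while both intervals held 0. HSPD1 is known to have many processed pseudogenes, and whether these probes bind their transcripts was not tested.

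HSPE1 was at 16.57 and 16.34 in the controls and at 16.30 and 16.09 with embelin. Both embelin arrays lay below both controls, the nearest of them by 0.04. The log2 fold change was -0.26 (standard error 0.19, 95% interval -0.78 to 0.26, adjusted p = 0.527 from limma), which did not pass the test. Of the genes measured throughout, 30.7% had both embelin arrays below both controls. None of the spots of either chaperonin gene was saturated, although both probes were very bright.

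**Figure D2:**
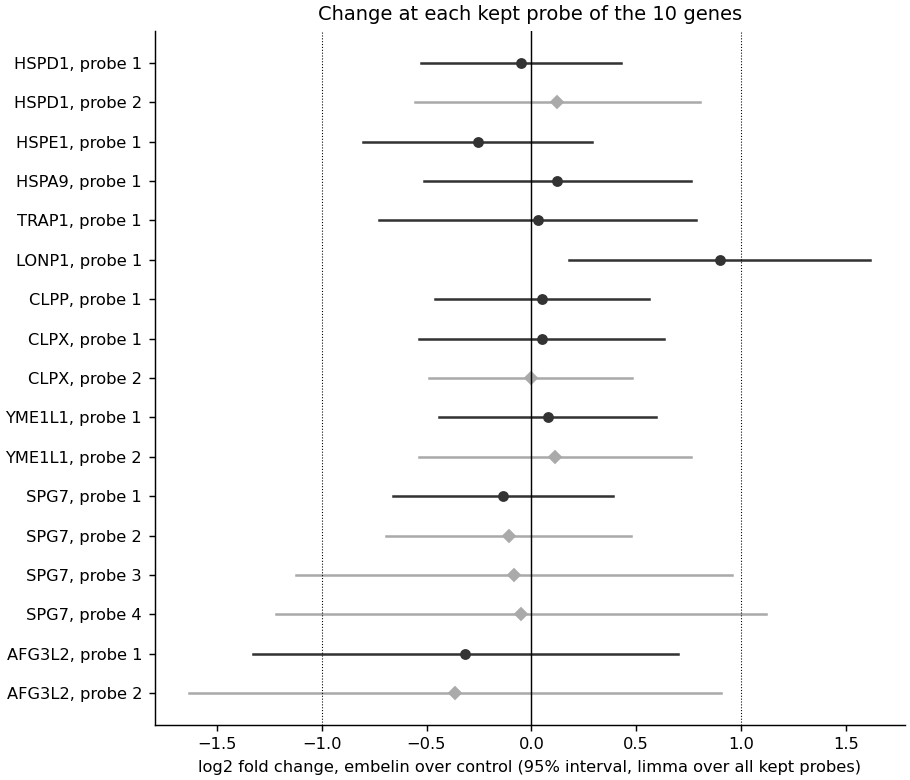
Log2 fold change of embelin over control at each kept probe of the 10 genes, with its 95% interval from limma fitted over all kept probes. Black circles are the probes that stand for a gene, grey diamonds the other probes, and dotted lines mark a 2-fold change either way. The interval of LONP1 is the only one of the 17 that leaves out 0, with a change of 0.90.

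HSPA9, the mitochondrial HSP70 (mortalin), drives import through the inner membrane and folds what arrives. It was at 12.45 and 11.98 in the controls and at 12.30 and 12.38 with embelin, which lay between the controls. The log2 fold change was 0.12 (95% interval -0.49 to 0.74, adjusted p = 0.819 from limma). TRAP1, the HSP90 of mitochondria, was at 12.45 and 13.00 in the controls and at 12.58 and 12.93 with embelin, so that its treated arrays too fell inside the range of the untreated ones. On the log2 scale it changed by 0.03 (95% interval -0.72 to 0.78, adjusted p = 0.967 from limma). For both chaperones the difference was smaller than the spread between the controls.

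The proteases of the inner membrane were covered by 8 probes. YME1L1, whose active site faces the intermembrane space and which processes OPA1, was at 12.92 and 12.90 in the controls and at 12.86 and 13.11 with embelin. The difference was 0.08 in log2 units (95% interval -0.41 to 0.57), and its other probe, for a different transcript, gave 0.11. SPG7 (paraplegin), a subunit of the protease that faces the matrix and a gene of hereditary spastic paraplegia, was at 13.49 and 13.60 in the controls and at 13.29 and 13.53 with embelin. Its log2 fold change was -0.13 (95% interval -0.63 to 0.36), and the other 3 probes gave -0.11, -0.08 and -0.05. The value of -0.08 came from the probe designed on the other RefSeq transcript, NM_199367, which was well above background on 3 of the 4 arrays.

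AFG3L2, the partner of SPG7 in that complex, was the least precisely measured of the 10. It was at 10.04 and 10.76 in the controls and at 9.75 and 10.42 with embelin. The arrays of a group differed by 0.72 and 0.66, and the groups by 0.31, with overlap. The log2 fold change was -0.31 (standard error 0.37, 95% interval -1.34 to 0.71, adjusted p = 0.706 from limma), and at the second probe, with arrays lying in the same order, it was -0.36. In folds the interval at the first probe runs from 0.396 to 1.63, which holds a fall of more than 2-fold. Without control replicate 2 the log2 fold change was 0.047 and without control replicate 1 it was -0.68. Between arrays of the same replicate number the differences were -0.29 and -0.34. Between arrays of like background they were 0.38 (lower background) and -1.01 (noisier), so the sign depended on which arrays were compared.

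Over the 10 genes, 8 had a 95% interval that lay wholly within a 2-fold change either way, the exceptions being LONP1 and AFG3L2. With each array left out in turn the sign held for LONP1, for HSPE1, which ranged from -0.37 (without control replicate 2) to -0.14 (without control replicate 1), and for SPG7, which ranged from -0.25 (without embelin replicate 2) to -0.015 (without embelin replicate 1). For the other 7 it changed with at least 1 array left out, namely control replicate 1 (HSPD1, TRAP1), control replicate 2 (HSPA9, AFG3L2), embelin replicate 1 (CLPP, AFG3L2) or embelin replicate 2 (TRAP1, CLPX, YME1L1). Without control replicate 1 LONP1 was at 1.20, and without control replicate 2 at 0.60.

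**Figure D3:**
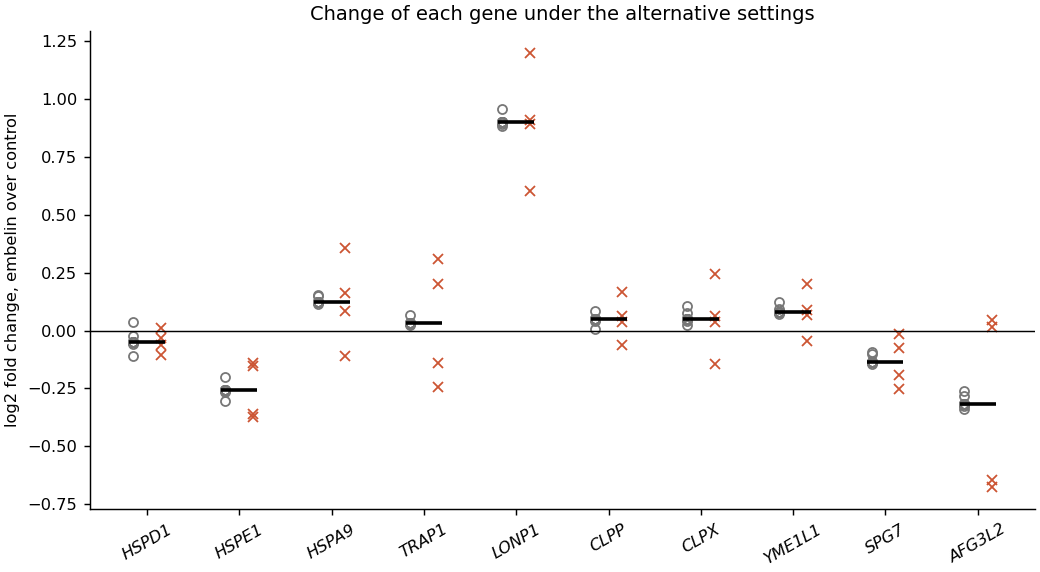
Log2 fold change of each gene as reported (black bar), under the 12 alternatives to the processing (grey circles) and with 1 array left out at a time (orange crosses). LONP1 stays between 0.60 and 1.20, and 7 of the other genes have crosses on both sides of 0.

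The start sites of the genes were examined because members of a shared unit could be read together. HSPD1 and HSPE1 are transcribed away from each other on chromosome 2, and in RefSeq (GRCh38.p14) the outermost HSPD1 start and the HSPE1 start have 104 bases between them. The whole stretch between the start sites is printed for the strand of HSPE1, with the match to the NRF1 element in capitals, since it is the promoter that the chaperonin pair share.
Between HSPD1 and HSPE1, chr2:197500275-197500378, + strand: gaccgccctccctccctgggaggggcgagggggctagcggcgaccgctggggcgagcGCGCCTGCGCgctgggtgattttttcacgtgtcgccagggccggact
The searched motifs were the heat shock element (GAANNTTC and TTCNNGAA, which can overlap each other), the C/EBP-ATF element TGATGNAA, bound by CHOP and ATF4 pairs, and the palindromic element of NRF1, nuclear respiratory factor 1. Both strands were read, over windows of 300 bases from 250 before to 50 after each RefSeq start, 11 windows for 8 of the genes (CLPP and YME1L1 have none in the table). The NRF1 element was found in 6 of the 11 windows, those of HSPD1, HSPE1, CLPX, SPG7 and LONP1, and in 5.78% of all 35116 windows. The HSPD1 and HSPE1 matches are the same site, and the 2 SPG7 windows overlap and hold the same sites, so the 11 windows make 9 separate regions, of which 4 hold the element. A heat shock element was found in windows of HSPD1 and HSPA9, and in 13.5% of all windows. The C/EBP-ATF element was in 0 of the 11 windows and in 3.62% of all.

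The matches in HSPD1, HSPA9 and LONP1 are shown as short stretches on the strand of the gene, in capitals, as the heat shock elements found and the element of the gene that moved most. In HSPD1, 3 heat shock elements overlap over 18 bases, beginning 245 bases before the second annotated start and lying inside the gene as counted from the first. In HSPA9 the match spans the start itself. The LONP1 match begins 200 bases before the outermost start, at a place where RefSeq also has the neighbouring gene CATSPERD.
HSPD1, chr2:197500062-197500089, - strand: cattTTCTGGAAAGTTCTGGAAccgagc
HSPA9, chr5:138575390-138575413, - strand: ttggaggtTTCCAGAAgcgctgcc
LONP1, chr19:5720633-5720662, - strand: ctgaagccctGCGCATGCGCatcaatgagt
A match describes the letters in the window and says nothing of a factor bound there. Beside them stand the expression values: of the 2 genes with a heat shock element, HSPD1 changed by -0.05 and HSPA9 by 0.12 on the log2 scale. Genes with the NRF1 element were HSPD1 at -0.05, HSPE1 at -0.26, CLPX at 0.05, SPG7 at -0.13 and LONP1 at 0.90. Genes with a window but without that element were HSPA9 at 0.12, TRAP1 at 0.03 and AFG3L2 at -0.31. Whether either element bears on the changes was not tested.

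Co-chaperones and assembly factors of mitochondria, a list of 10 genes, held 0 calls in either direction by limma, against 1.81% of all genes. In this list 1 gene had an unadjusted p under 0.05, against 19.5% of all genes. That gene was GRPEL1, which exchanges the nucleotide of mitochondrial HSP70. It was at 10.90 and 10.59 in the controls and at 11.49 and 11.37 with embelin, 1.61-fold higher (log2 difference 0.69, 95% interval 0.15 to 1.22, adjusted p = 0.176 from limma). Its paralog GRPEL2 was at 0.41 (adjusted p = 0.322 from limma), and both embelin arrays exceeded both controls for each of the pair. The same was so for 4 of the 10 genes of the list and for 21.1% of the genes measured throughout. Another 4 of the list had both embelin arrays below both controls, against 30.7%. The HSP70 that GRPEL1 and GRPEL2 serve, HSPA9, was at 0.12. The median of the list was -0.07.

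Of 12 other mitochondrial proteases, 0 were called, against 1.81% of all genes. An unadjusted p under 0.05 was found for 3, all lower with embelin, against 11.1% of all genes lower at that p. OMA1, a stress-activated protease of the inner membrane that cuts OPA1 and DELE1, was at 10.49 and 10.52 in the controls and at 9.83 and 9.85 with embelin. The arrays of each group lay close together, and the difference was -0.66 on the log2 scale (95% interval -1.09 to -0.23, adjusted p = 0.133 from limma). ATP23, a metalloprotease of the intermembrane space, was at -0.57 (adjusted p = 0.176). The median was -0.21, with 10 of the 12 below 0, beside -0.06 over all genes, of which 56.1% were below 0.

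The import machinery was 16 genes of the outer and inner membrane translocases. It had 0 calls and 0 genes at an unadjusted p under 0.05, against 1.81% and 19.5% of all genes. The median was -0.23 and 13 of the 16 were below 0, against -0.06 and 56.1% over all genes. TOMM22, a receptor of the outer membrane, had the largest difference, -0.65, but its controls were at 11.99 and 13.60 and its embelin arrays at 11.96 and 12.34, so that the groups overlapped. TIMM8A, a small chaperone of the intermembrane space, was at -0.49 (adjusted p = 0.273 from limma), with both embelin arrays below both controls. That order was seen for 30.7% of the genes measured throughout.

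The list of 13 regulators linked to mitochondrial stress and biogenesis had 1 call, DDIT3 (CHOP), higher with embelin, against 1.25% of all genes. DDIT3 was at 7.21 and 7.28 in the controls and at 11.55 and 11.42 with embelin, 18.9-fold higher (adjusted p = 0.0204 from limma). Besides DDIT3, 5 regulators were higher and 1 was lower at an unadjusted p under 0.05, against 8.36% and 11.1% of all genes. The median was 0.52, beside -0.06 over all genes. Among 12 cytosolic heat shock genes, 2 were called lower, HSPA1A and HSPA1B, against 0.561% of all genes. Their log2 fold changes were -4.14 and -3.97 (adjusted p = 0.0204 and 0.0268 from limma). Since the 2 genes are almost the same in sequence, their probes may not tell one from the other, and the share of each is uncertain. In all, 7 of the 12 were lower at an unadjusted p under 0.05, against 11.1% of all genes, and the median was -0.65. Besides HSPA1A and HSPA1B, these 7 were DNAJB1 at -1.51, DNAJA1 at -1.15, BAG3 at -1.04, CHORDC1 at -0.72 and HSPH1 at -0.57. The cytosolic genes at an unadjusted p of 0.05 or more were HSPB1 at 0.05, HSP90AA1 at -0.20, HSP90AB1 at -0.23, HSPA8 at -0.39 and HSPA4 at -0.43. Beside this list stand HSPD1 at -0.05 and HSPE1 at -0.26, heat shock genes of the mitochondrial matrix. The calls of DDIT3, HSPA1A and HSPA1B, like every other call, were lost in 9 of the 16 alternatives, among them the replicate block, slide position and each array left out, where 0 genes were called. The differences between these lists were not tested.

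**Figure D4:**
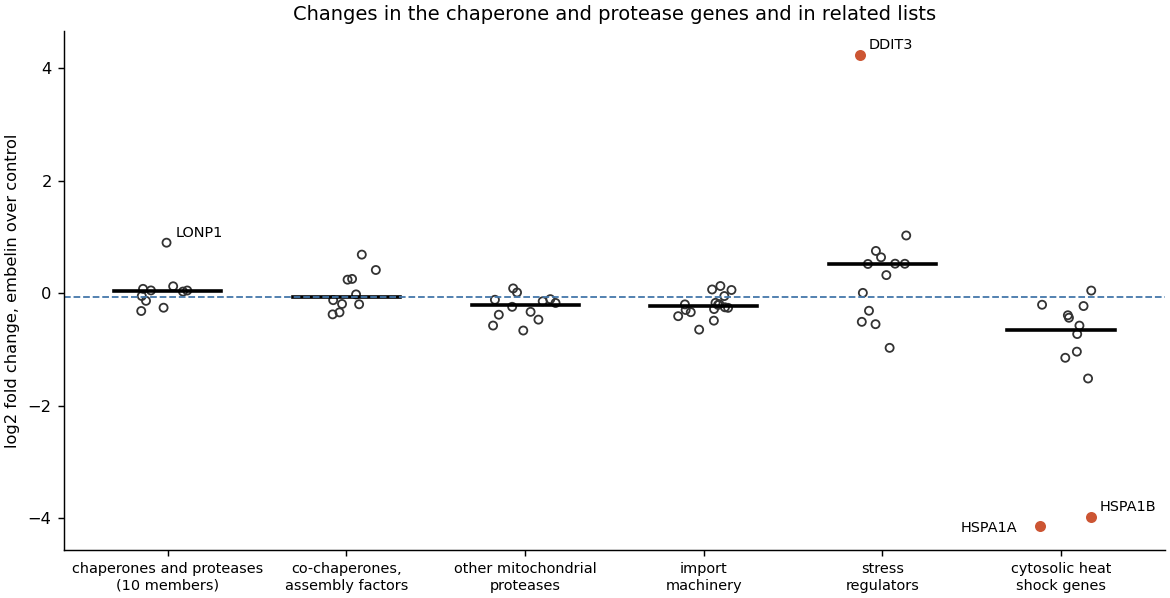
Log2 fold change of embelin over control for the 10 chaperone and protease genes and for the genes of 5 related lists. Open circles are genes not called and filled circles genes called by limma after adjustment, black bars are list medians, and the dashed line is the median of all genes tested, -0.06. The 10 genes lie around a median of 0.04 with LONP1 above the rest, while DDIT3, HSPA1A and HSPA1B are the 3 called genes, whose calls were lost in 9 of the 16 alternatives.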

How the data were processed

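RNA from 2 control and 2 embelin samples was labelled with Cy3 and hybridized to 1 custom Agilent array each, all on 1 slide read in 1 scan (controls at positions 1 and 4, embelin at 2 and 3). The authors deposited intensity values from Feature Extraction 10.7.3.1 (per the file headers), with background subtracted and trends within each array removed, not normalized between arrays. Here each array was scaled to a common 75th percentile, the shift that the study's methods name, given a floor of 1 and log2-transformed. Outlier spots were left out, which touched 918 probes. A probe was kept where both arrays of a group, either group, had it well above background (26146). Accessions in RefSeq (GRCh38.p14) named 28595 of 50238 probes. The brightest kept probe by mean log2 signal stood for a gene. Groups were compared with limma 3.58.1 in R 4.3.3 (lmFit, eBayes), adjusted by Benjamini-Hochberg over 17649 genes, with adjusted p under 0.05 as a call. Tested on simulated data that took each gene's observed spread as its true spread, the fit recovered none of the 2-fold and 4-fold changes put in. A spread estimated from 2 arrays a group is itself uncertain, so this recovery does not measure power in the real data. A simulation added after that, with 4-fold and 16-fold changes and spreads drawn from the fitted prior, was recovered in part. Intervals are limma's 95% intervals. With 2 arrays a group, the smallest two-sided p of an exact permutation test is 0.333.

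The genes, lists and alternatives were chosen with earlier results of these data known. The named genes were all 10 members, and of each other list every called gene or, with none called, the 2 with the largest change among genes well above background on all 4 arrays. Genes named beyond this rule were chosen after their values were seen. Promoter windows came from RefSeq (GRCh38.p14). Alternatives were normexp background correction (offset 50), quantile normalization, the deposited table of intensity values, no filter, a filter on all 4 arrays, the methods' t-test, limma's trend and robust options, blocks by replicate number and by like background, other ways of using several probes, slide position as a covariate, and leaving out each array.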

Additional observations from a re-analysis of the deposited data

How the results depend on the processing

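In 9 of the 16 alternatives no gene at all was called, so the calls there say nothing of the members. In the other 7, 0 members were called by limma. Among the 12 alternatives that used all 4 arrays, LONP1 had an unadjusted p of 0.05 or more with the methods' t-test and with no filter on dim probes. In the rest of those 12 it was under 0.05. With 1 array left out, a group holds a single array, and only the log2 fold change of LONP1 is given, 0.60 to 1.20. The median of the members ranged from -0.09 to 0.09 with 1 array left out and from 0.02 to 0.08 otherwise. HSPD1 turned to 0.038 as the mean over its probes. With 1 array left out the log2 fold change ranged from -0.11 to 0.011 for HSPD1, from -0.11 to 0.36 for HSPA9, from -0.24 to 0.31 for TRAP1, from -0.064 to 0.17 for CLPP, from -0.14 to 0.24 for CLPX, from -0.045 to 0.20 for YME1L1 and from -0.68 to 0.047 for AFG3L2.

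Over all genes, 221 were called higher and 99 lower. The counts were 460 and 269 with normexp, 126 and 33 with the deposited table, 419 and 345 with the filter on all 4 arrays and 566 and 495 with trend and robust options. The lower count was 63 with quantile normalization, 56 with the mean over probes and 65 with each probe on its own. Both were 0 with no filter, the methods' t-test, slide position, the crossed replicate block (arrays of like background) and each array left out (0 to 0); fewer residual degrees of freedom follow from the last 3, and otherwise the cause was not tested. With the replicate number as a block both counts were also 0. Samples of the same number deviated with a correlation of 0.18 across genes, and with 2 pairs the numbers do not establish pairing. In that fit AFG3L2 had an unadjusted p of 0.146 and LONP1 one of 0.0269 by limma.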

Other observations

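Genes on the route from mitochondrial damage to the integrated stress response were read together after their values had been seen. OMA1 cuts DELE1, which then activates the kinase HRI (EIF2AK1), and this raises translation of ATF4 and transcription of DDIT3. OMA1 was at -0.66 on the log2 scale, DELE1 at 0.53 (adjusted p = 0.205 from limma), EIF2AK1 at -0.31 (adjusted p = 0.596), ATF4 at 0.52 (adjusted p = 0.199) and DDIT3 at 4.24 (adjusted p = 0.0204). For OMA1, DELE1, ATF4 and DDIT3 the arrays of the groups did not overlap, as was so for 51.8% of all genes, and DDIT3 was the only one of the 5 called. The arrays measure transcripts and not cleavage or translation, and whether DDIT3 rose by this route was not tested. ATF5, a factor that is itself linked to the mitochondrial unfolded protein response, was at 9.57 and 9.88 in the controls and at 9.08 and 9.27 with embelin, a log2 fold change of -0.55 (adjusted p = 0.257).

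Regulators of mitochondrial biogenesis were also picked out after their values were seen. PPARGC1A, which encodes the coactivator PGC-1α, was at 7.93 and 7.62 in the controls and at 7.03 and 6.58 with embelin (log2 fold change -0.97, adjusted p = 0.150 from limma). NRF1, whose element occurs in 4 of the 9 separate promoter regions examined, was at 6.56 and 6.44 in the controls and at 6.96 and 7.54 with embelin (log2 fold change 0.75, adjusted p = 0.232). TFAM, which packages mitochondrial DNA, was at -0.51 (adjusted p = 0.258). None of the 3 was called.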
